A study of Homo sapiens with 10 samples.

Results

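Noncoding snoRNA host genes were followed through knockdown of ZHX2 and of p65 in 786-O cells. The set was a fixed list of 10 genes, GAS5, SNHG1, SNHG3, SNHG5, SNHG6, SNHG8, SNHG12, SNHG15, SNHG19 and DANCR. It was drawn up by name with earlier results of these data known, so the counts below are a description. Of these 10, 8 had a probe set of their own among the 22462 genes measured. SNHG3 and SNHG6 were covered only by probe sets annotated to several genes, so they entered no count and no test. The 786-O line, from a human clear-cell kidney tumour, has no working VHL protein. In every group the cells were infected with lentivirus and selected with puromycin. There were 5 groups of 2 arrays, which were ZHX2 hairpin 44, ZHX2 hairpin 45 and a scrambled control in one deposited table, and p65 shRNA and a control shRNA in another. The labels name no allele, no inducible promoter and no single-cell clone, and they give no time after infection. They also do not say whether the 2 arrays of a group came from separate cultures, so each p-value measures only the spread between these arrays, which may be technical.

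Small nucleolar RNAs guide the chemical modification of ribosomal RNA. C/D box snoRNAs direct methylation of the ribose and H/ACA box snoRNAs direct the conversion of uridine to pseudouridine. In vertebrates most of them are cut out of the introns of longer host transcripts. In the host genes studied here the spliced exons carry no long open reading frame, and for several of these genes, GAS5 among them, the spliced RNA is known to be translated briefly and then removed by nonsense-mediated decay. Many host genes start transcription at a C followed by a run of pyrimidines, the feature that also marks the messenger RNAs of ribosomal proteins. ZHX2, the product targeted by the hairpins, is a zinc-finger and homeobox transcription factor and a substrate of VHL, and p65, encoded by RELA, is a subunit of NF-kB.

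The stretch around the start of transcription, as the RefSeq promoter table places it, is shown because it is what these genes could share at the DNA level, independent of the array signal. RefSeq promoter sequence of build GRCh38.p14 was matched for 7 of the 8 measured genes. Each line runs 5′ to 3′ on the transcribed strand, from 40 bases before the start through the first 30 transcribed bases. For SNHG12 that start lies 1110 bases inside the gene's outer end in the RefSeq gene table, and for the other 6 the positions coincide. Capitals mark a TATAA and a pyrimidine tract that opens at the start.
GAS5, chr1:173869016-173869085, minus strand: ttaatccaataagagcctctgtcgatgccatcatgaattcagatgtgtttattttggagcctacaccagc
SNHG1, chr11:62855856-62855925, minus strand: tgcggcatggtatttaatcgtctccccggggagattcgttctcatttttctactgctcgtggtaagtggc
SNHG5, chr6:85678704-85678773, minus strand: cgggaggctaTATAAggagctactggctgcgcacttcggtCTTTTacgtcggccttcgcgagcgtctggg
SNHG8, chr4:118278722-118278791, plus strand: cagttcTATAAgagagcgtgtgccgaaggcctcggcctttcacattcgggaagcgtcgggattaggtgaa
SNHG12, chr1:28581844-28581913, minus strand: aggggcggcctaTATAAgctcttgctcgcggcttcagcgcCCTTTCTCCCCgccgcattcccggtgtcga
SNHG19, chr16:2155329-2155398, minus strand: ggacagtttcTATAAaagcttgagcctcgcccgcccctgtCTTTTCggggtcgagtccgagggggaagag
DANCR, chr4:52712354-52712423, plus strand: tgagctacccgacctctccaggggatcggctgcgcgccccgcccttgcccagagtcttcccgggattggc

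A TATAA that began 40 to 21 bases before the start was found in 4 of these 7 windows, those of SNHG5, SNHG8, SNHG12 and SNHG19. It began 30, 34, 28 and 30 bases before the start, in that order of genes. Over 35116 RefSeq promoters the same search on the transcribed strand matched 3.89%. On the other strand it matched 1.7% of promoters and none of the 7 windows. A C at the start followed by at least 4 bases that were C or T, sought on the transcribed strand only, was found in SNHG5, SNHG12 and SNHG19, which is 3 of 7 against 4.07% of all promoters. Those 3 windows held both features, as did 0.094% of all promoters. The searches cover stretches that do not overlap. Both patterns were chosen after the sequences had been looked at, so the shares are a description, and the absence of these letters from the other windows says nothing about any factor.

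Signals were log2 values after robust multi-array averaging (RMA), which scales arrays to one another, so each change below is relative to the bulk of the genes on the array. In bulk RNA, fewer cells of a type and less RNA per cell cannot be told apart. The median signal was 6.15 to 6.22 on the ZHX2 arrays and 1.87 to 1.89 on the p65 arrays, and no level was compared between tables or between probe sets. Across genes, replicate arrays correlated at 0.993 to 0.995 in the ZHX2 table and at 0.985 to 0.987 in the p65 table. The targeted gene ZHX2 read 9.35 and 9.38 with hairpin 44, 8.93 and 9.02 with hairpin 45, and 10.58 and 10.43 with the scrambled control, a fall of 1.14 with hairpin 44 (adjusted p = 0.00529) and of 1.53 with hairpin 45 (adjusted p = 0.000927). RELA read 5.04 and 5.28 in p65 shRNA cells, against 7.64 and 7.67 in control shRNA cells. Its log2 change was -2.50 ± 0.178 (SE), with an adjusted p of 0.0730 that missed the threshold of 0.05. With an intensity trend in the moderation it was 0.00131. Among the markers listed for the labelled renal tissue, PAX8 lay between 11.7 and 12.4 and VIM between 12.1 and 12.3 over the ZHX2 arrays. CDH6 lay between 9.03 and 11.58, PAX2 between 8.12 and 8.78, KRT8 between 8.03 and 8.35, and KRT18 between 7.02 and 7.97. The arrays carry no background measure by which any marker could be called absent. With both ZHX2 hairpins against scrambled, 3 of 6 measured renal epithelial markers were called lower and 1 higher at an adjusted p under 0.05. Of all 22462 genes 1438 were called lower and 2665 higher. CDH6, a kidney cadherin, fell by 1.92 on the log2 scale, PAX8 by 0.38 and PAX2 by 0.36, while KRT18 rose by 0.62. The summed linear signal of the 6 renal markers was 9886 to 11560 with the hairpins and 13420 to 13860 with the scrambled control. Of 18 markers of other cell types, 4 were called lower with the hairpins (NEFL, LUM, SYT1 and CD68) and 0 higher, and 6 of the 18 had a positive change. Their summed signal with the hairpins against scrambled was 1598 to 1627 against 2081 to 2264 for leukocytes, 233.3 to 247.5 against 236.0 to 254.1 for endothelium, 231.9 to 270.7 against 350.3 to 358.3 for fibroblasts, and 2126 to 2573 against 4493 to 4715 for neurons. CD68 made up most of the leukocyte sum, at a mean of 10.53 with the hairpins and 10.99 with scrambled, and the other 4, none of them called, changed by -0.16 to 0.09. NEFL likewise made up most of the neuronal sum, at a mean of 10.75 with the hairpins and 11.91 with scrambled. The part of these marker shifts in the results that follow was not tested.

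Every measured host gene rose when ZHX2 was knocked down. With the mean of both hairpins set against the scrambled control, 8 of 8 were called higher at a Benjamini-Hochberg adjusted p under 0.05 from limma, against 11.9% of all genes called higher and 18.3% called in either direction. Their log2 changes ran from 0.42 for SNHG12 to 1.12 for SNHG19, with a median of 0.81 where the median of all genes was -0.004. In all 8 genes the lowest hairpin array lay above the highest scrambled array, a separation that 21.9% of all genes showed in that direction. Over all genes 2665 of 4103 calls were higher, and after a further quantile normalization 2112 of 3970 were. The share of higher calls moved in the same way from 62.8% to 51.2% for hairpin 44 and from 64.7% to 53.1% for hairpin 45. All 8 host genes kept their call for both hairpins together after that normalization.

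**Figure D1:**
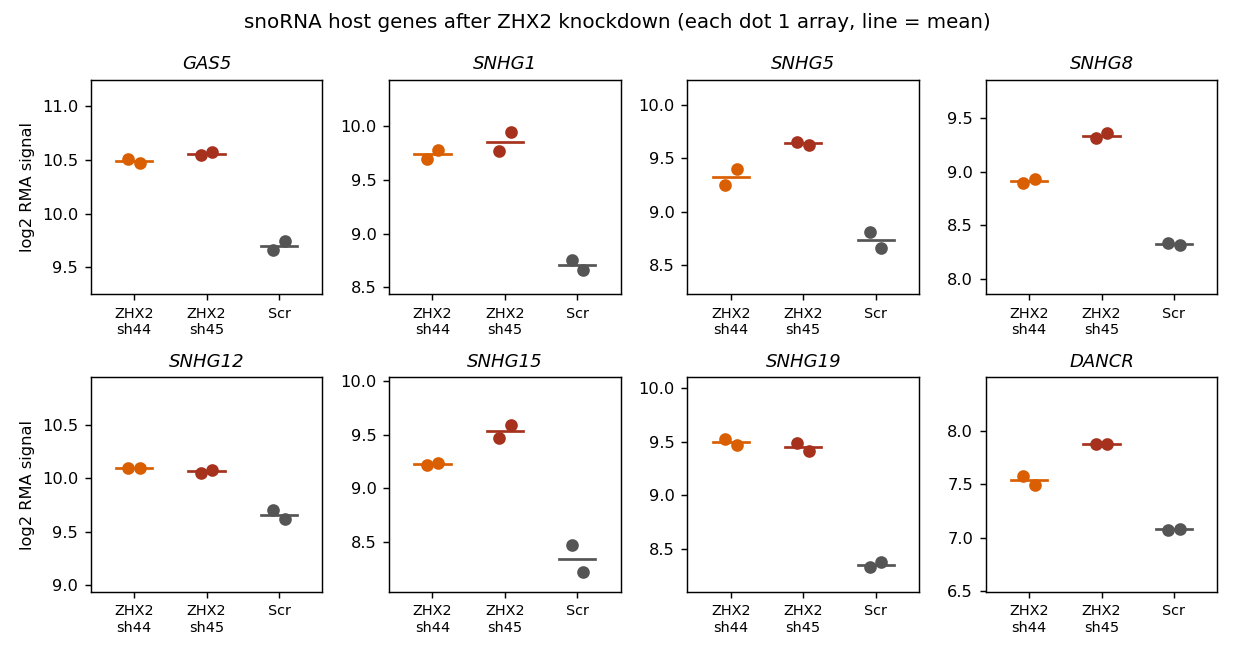
Log2 RMA signal (vertical axis) of 8 noncoding snoRNA host genes on the 6 ZHX2 arrays. Each dot is 1 array, the horizontal line is the mean of 2, and the groups are ZHX2 hairpin 44, ZHX2 hairpin 45 and scrambled from left to right; panels have different ranges of equal height, and in each panel all 4 hairpin arrays lie above both scrambled arrays.

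GAS5, SNHG1, SNHG5 and SNHG19 host C/D box snoRNAs. GAS5, whose spliced RNA was first known for accumulating in growth-arrested cells and can bind the glucocorticoid receptor, read 10.51 and 10.47 with hairpin 44, 10.54 and 10.57 with hairpin 45, and 9.66 and 9.74 with the scrambled control. All 4 hairpin arrays stood clear of the scrambled arrays, at 0.82 ± 0.0641 (SE) on the log2 scale or 1.77-fold (adjusted p = 0.00211), and the hairpin means were 0.07 apart. SNHG1, an early example of a gene whose introns are its conserved part, read 9.70 and 9.79 with hairpin 44, 9.77 and 9.95 with hairpin 45, and 8.75 and 8.66 with the scrambled control. Both hairpins overlapped each other and stood clear of the scrambled arrays, at 1.09 ± 0.0820 or 2.13-fold (adjusted p = 0.00197). SNHG19, host of the single snoRNA SNORD60, had the largest change of the 8, with 9.52 and 9.47 for hairpin 44, 9.49 and 9.41 for hairpin 45, and 8.33 and 8.37 for the scrambled control. That is 1.12 ± 0.0649 or 2.17-fold (adjusted p = 0.00114), again with overlapping hairpins. SNHG5, host of SNORD50A and SNORD50B, read 9.25 and 9.40 with hairpin 44, 9.65 and 9.62 with hairpin 45, and 8.81 and 8.66 with the scrambled control. Here the groups formed 3 steps without overlap, with hairpin 45 highest, and the change over both hairpins was 0.74 ± 0.0798 or 1.67-fold (adjusted p = 0.00417).

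SNHG8, SNHG15 and DANCR each host an H/ACA box snoRNA, and SNHG12 hosts both classes. SNHG8, host of SNORA24, read 8.89 and 8.93 with hairpin 44, 9.31 and 9.36 with hairpin 45, and 8.33 and 8.31 with the scrambled control. Its 3 groups were separate and each was tight, with replicates no more than 0.05 apart, and the change over both hairpins was 0.80 ± 0.0622 or 1.74-fold (adjusted p = 0.00211). SNHG15, host of SNORA9, read 9.21 and 9.24 with hairpin 44, 9.47 and 9.60 with hairpin 45, and 8.47 and 8.22 with the scrambled control. Its scrambled arrays lay 0.24 apart, the widest replicate gap of the 8 genes in this table, and the change was 1.04 ± 0.0915 or 2.05-fold (adjusted p = 0.00268). DANCR, host of SNORA26 and known for holding epidermal progenitors in an undifferentiated state, read 7.58 and 7.49 with hairpin 44, 7.87 and 7.88 with hairpin 45, and 7.08 and 7.08 with the scrambled control. The scrambled arrays and the hairpin 45 arrays agreed to within 0.006, hairpin 44 lay between them, and the change was 0.63 ± 0.0638 or 1.54-fold (adjusted p = 0.0036). SNHG12, host of SNORA16A, SNORA44, SNORA61 and SNORD99, read 10.09 and 10.10 with hairpin 44, 10.05 and 10.08 with hairpin 45, and 9.70 and 9.62 with the scrambled control. This was the smallest change of the 8, 0.42 ± 0.0644 or 1.34-fold (adjusted p = 0.0103), and without the second scrambled array it missed the threshold (adjusted p = 0.0507), leaving 7 of 8 genes called. Ordered by size, SNHG19 lay within 1 standard error of SNHG1, SNHG1 of SNHG15, GAS5 of SNHG8, and SNHG8 of SNHG5. No test between genes was made.

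With either hairpin alone all 8 host genes rose. With hairpin 44 the 8 calls stood against 4.80% of all genes called higher, with a median change of 0.69 and a range from 0.43 (SNHG12) to 1.14 (SNHG19). With hairpin 45 the 8 calls stood against 13.0% of all genes, with a median of 0.96 and a range from 0.41 (SNHG12) to 1.19 (SNHG15). Both contrasts use the same scrambled arrays, so the second is no independent repeat of the first. The hairpin 44 calls rested on few arrays. Whichever array was left out, fewer of the 8 genes were called, and fewer of all genes were called too. The median change of the 8 lay between 0.669 and 0.714 in those fits. Fitted on only the 4 arrays compared, hairpin 44 called 5 of 8, where 303 of all 22462 genes were called higher. The genes that lost the call were SNHG5, SNHG12 and DANCR (adjusted p from 0.0618 to 0.0751). Leaving out a hairpin 45 array gives this same fit, because the hairpin 45 array that remains adds no spread, so it is no further check. Under hairpin 45 only SNHG12 lost its call, without either hairpin 45 array or without the second scrambled array (adjusted p of 0.0547 to 0.0993). Directions held in each of these fits.

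**Figure D2:**
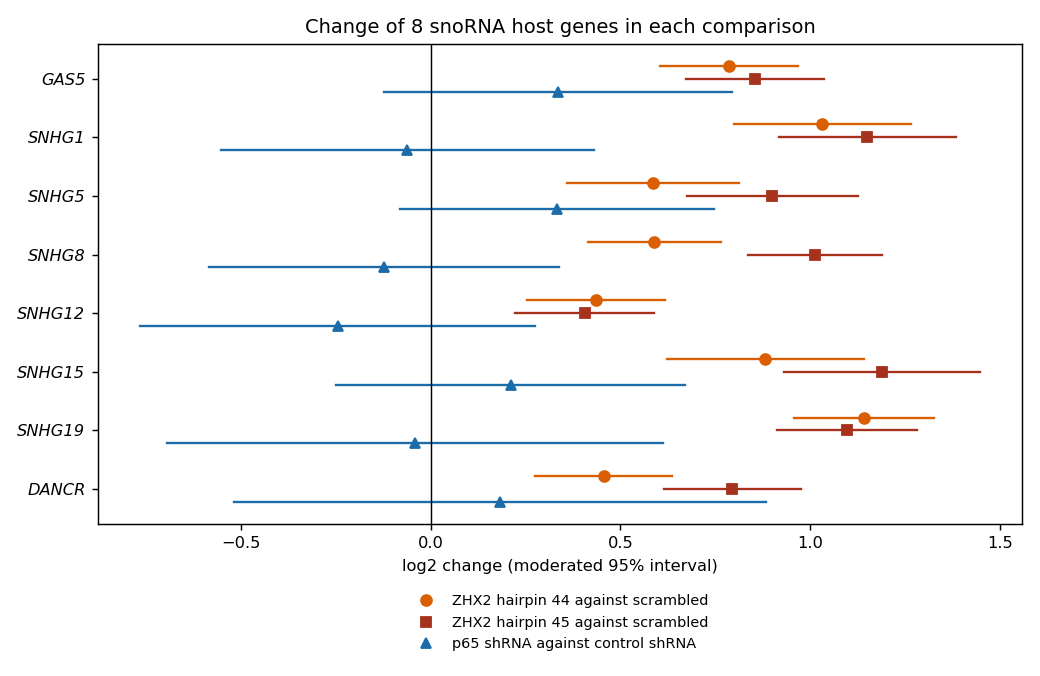
Log2 change (horizontal axis) of each host gene with hairpin 44 and hairpin 45 against scrambled and with p65 shRNA against control shRNA, with moderated 95% intervals. All 16 ZHX2 intervals lie above 0 and all 8 p65 intervals include 0.

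For hairpin 45 against hairpin 44 the change of ZHX2 itself was -0.39, which missed the threshold (adjusted p = 0.153) and passed it with an intensity trend in the moderation (adjusted p = 0.00515). The host genes were set side by side in the same contrast. None of the 8 was called, where 0.396% of all genes were called. Their changes were positive in 6 of 8, with a median of 0.21. SNHG8 was 0.42 higher with hairpin 45 than with hairpin 44, with a 95% interval from 0.248 to 0.600 and an adjusted p of 0.105. DANCR was higher by 0.34 (adjusted p = 0.149), SNHG5 by 0.31 (adjusted p = 0.218) and SNHG15 by 0.31 (adjusted p = 0.268), and the arrays of these 4 genes did not overlap between hairpins. GAS5 also separated, by only 0.07, SNHG12 was separate in the other direction at -0.03, and SNHG1 (0.12) and SNHG19 (-0.05) overlapped. Separation of that kind was common, at 26.9% of all genes upward and 23.5% downward. With an intensity trend in the moderation, SNHG8 (adjusted p = 0.00283), SNHG5 (0.0255) and DANCR (0.0440) passed the threshold, among 6.52% of all genes. Without dim probe sets SNHG8 alone of the 8 did (adjusted p = 0.0324), where 400 of the 16443 genes left were called.

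Probe sets placed on hosted snoRNAs were available for 5 of the host genes. Of 31 snoRNAs listed in the introns of the 10 genes, 6 had a probe set of their own, and all 6 were called higher with the ZHX2 hairpins, beside 11.9% of all genes. SNORD78 in GAS5 read 10.00 and 10.05 with hairpin 44, 10.08 and 10.17 with hairpin 45, and 8.54 and 8.96 with the scrambled control, a change of 1.32 ± 0.123 (adjusted p = 0.00286). Its neighbour SNORD75, also in GAS5, changed by 1.14 ± 0.0832 (adjusted p = 0.0019), and both are C/D box guides. Both changes were larger than the 0.82 of their host, though the 95% interval of SNORD75 (0.932 to 1.34) overlapped that of GAS5 (0.663 to 0.978). SNORD99 in SNHG12 read 7.50 and 7.59 with hairpin 44, 7.71 and 8.05 with hairpin 45, and 6.80 and 6.50 with the scrambled control. At 1.06 ± 0.131 (adjusted p = 0.00576) its interval, 0.739 to 1.38, did not overlap that of SNHG12, 0.262 to 0.578. SNORD60 changed less than its host, at 0.71 ± 0.127 (adjusted p = 0.0157) against 1.12 for SNHG19, with overlapping intervals. SNORA26 changed by 0.78 ± 0.124 beside 0.63 for DANCR, and it was the snoRNA in which the hairpins lay farthest apart, at 7.45 and 7.39 with hairpin 45, 6.66 and 6.70 with hairpin 44, and 6.48 and 6.06 with the scrambled control. That gap of 0.74 between hairpins was not called (adjusted p = 0.123). SNORA24 had the smallest change, 0.45 ± 0.104 (adjusted p = 0.034) beside 0.80 for SNHG8.

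Not all of these snoRNA calls were stable. SNORA24 lost its call after quantile normalization (adjusted p = 0.0520) and without any one array other than the first scrambled array (0.0510 to 0.155), and SNORD60 lost its call without the second array of hairpin 44 or of hairpin 45 (0.0513 and 0.0524). Without either of those arrays fewer of the 6 were called, and fewer of all genes too. With hairpin 44 alone against scrambled 4 of 6 were called, beside 4.80% of all genes, and with hairpin 45 alone 6 of 6, beside 13.0%. The 4 calls of hairpin 44 became 3 on only the groups compared, where 303 of all 22462 genes were called higher. They became 2 with a replicate block, where 465 of all genes were called higher. Fewer were also called without the second scrambled array or either hairpin 44 array. With hairpin 45, fewer of the 6 were called without its first array and in some other fits that left out an array. Fewer of all genes were called in each of these left-out fits. A probe set placed on an intronic snoRNA can report the mature snoRNA or the unspliced host transcript, and which of them it reported here was not tested. No direct test of snoRNA against host was made, because they are different probe sets.

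**Figure D3:**
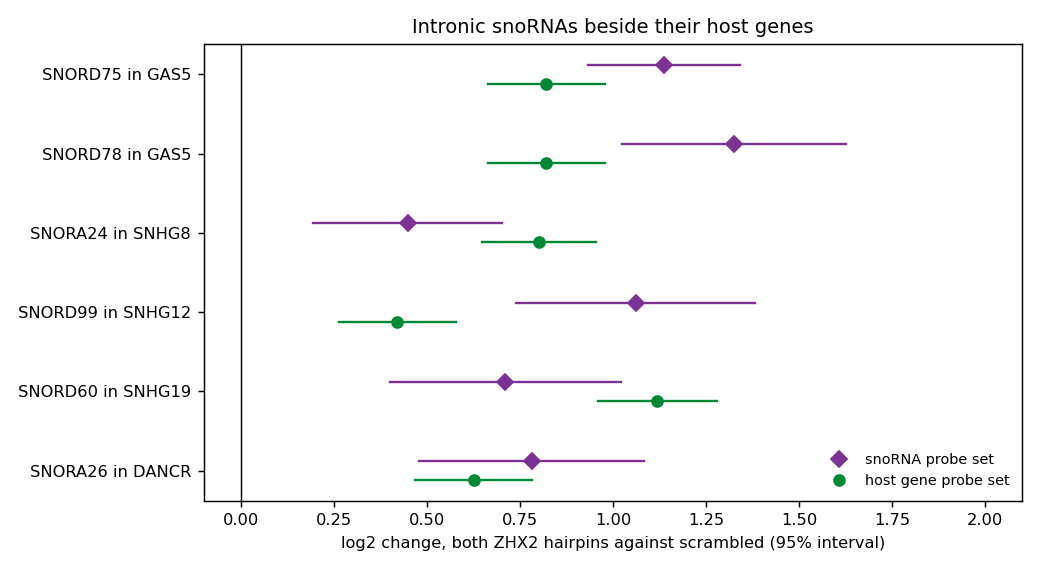
Log2 change (horizontal axis) with both ZHX2 hairpins against scrambled for 6 intronic snoRNAs (diamonds) and their host genes (circles), with moderated 95% intervals. Only the pairs SNORD78 with GAS5 and SNORD99 with SNHG12 have intervals that do not overlap, and in both the snoRNA lies higher.

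Other genes of the pathway were read from fixed lists, also chosen with earlier results of these data known. Of 18 further noncoding host genes 7 had a probe set of their own. With both ZHX2 hairpins together 5 of the 7 were called higher, where 11.9% of all genes were, and 0 were called lower. The median change was 0.36, beside -0.004 for all genes. SNHG16 rose by 0.71 ± 0.0675 (adjusted p = 0.003), SNHG17 rose 1.54-fold (adjusted p = 0.00611), EPB41L4A-AS1 by 0.57 (adjusted p = 0.0104), ZFAS1 by 0.36 (adjusted p = 0.0191) and SNHG32 by 0.28 (adjusted p = 0.0483). SNHG21 (0.11) and SNHG18 (-0.05) were not called. Fewer of the 7 were called without the second scrambled array, the second hairpin 44 array or either hairpin 45 array. Fewer of all genes were called in those fits too. SNHG32 lost its call without any one array, after quantile normalization (adjusted p = 0.140) and with a replicate block (adjusted p = 0.0827).

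Of 40 listed protein-coding hosts of snoRNAs, many of them ribosomal protein genes, 12 had a probe set of their own. Of these 12, 8 were called higher, beside 11.9% of all genes, 0 were called lower, and the median change was 0.37. All 12 changes were positive. EEF2 (0.24, adjusted p = 0.0541), TPT1 (0.17), RPL10 (0.16) and CNOT1 (0.12) did not pass the test. RPL12, of the large ribosomal subunit, rose by 0.95 ± 0.0783 (adjusted p = 0.00231), WDR43, a factor of ribosomal RNA processing, by 0.81 ± 0.0678 (adjusted p = 0.00238), RPL32 by 0.62 (adjusted p = 0.00396) and the mitochondrial chaperone HSPA9 by 0.43 (adjusted p = 0.00944). Without the second scrambled array fewer of the 12 were called, and fewer of all genes too. Whether the noncoding hosts changed more than the coding hosts was not tested.

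Of 17 genes for the proteins that package snoRNAs into particles (snoRNPs) and assemble them, 15 were measured. Of these 15, 13 were called higher, beside 11.9% of all genes, and 0 lower, with a median change of 0.47. All 15 changes were positive. GAR1 (0.22) and PIH1D1 (0.17) did not pass the test. NOP58, a core protein of C/D box particles, rose by 0.81 ± 0.0655 (adjusted p = 0.00222), FBL, the methyltransferase of the same particles, by 0.66 ± 0.0603 (adjusted p = 0.00286), RUVBL2, an ATPase of the assembly machinery, by 0.60 (adjusted p = 0.00417) and NUFIP1, an assembly factor, by 0.70 (adjusted p = 0.00832). Without the second scrambled array fewer of the 15 were called, and fewer of all genes too. NUFIP1, at a change of 0.68 there, was no longer among them. Of 18 factors of nonsense-mediated decay 14 were measured. Of these 14, 9 were called higher, beside 11.9% of all genes, and 0 lower, with a median change of 0.295. The change was positive in 13 of the 14. GSPT1 (0.31), CASC3 (0.22), SMG8 (0.22), SMG9 (0.16) and SMG6 (-0.07) did not pass the test. The members with the smallest p were EIF4A3 at 0.61, RBM8A at 0.43, the release factor ETF1 at 0.63, and MAGOHB at 0.53. The core factor UPF1 changed by 0.28 (adjusted p = 0.0334). This list depended on the arrays and scaling, with 5 of 14 called after quantile normalization or with a replicate block. Higher calls over all 22462 genes went from 2665 to 2112 and 2167 in these fits. Fewer of the 14 were also called without the second scrambled array, the second hairpin 45 array or either hairpin 44 array. Fewer of all genes were called there too. In all 4 lists the called genes were called in 1 direction.

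**Figure D4:**
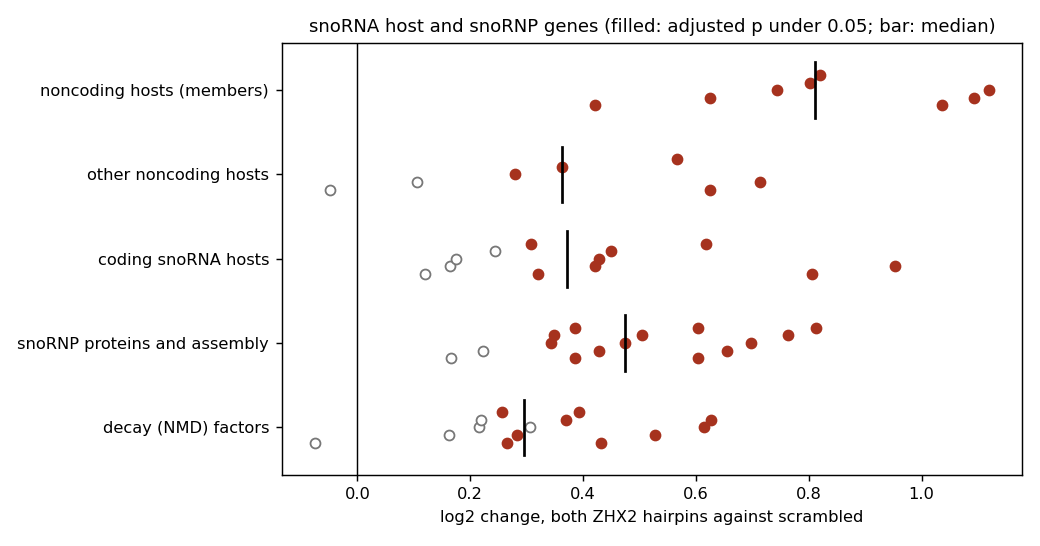
Log2 change (horizontal axis) with both ZHX2 hairpins against scrambled for the 8 host genes and for 4 lists of related genes, 1 circle a gene. Filled circles have an adjusted p under 0.05 and the bar is the median of the list, 0.81 for the noncoding hosts of this study and between 0.295 and 0.47 for the other lists.

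After p65 knockdown no host gene passed the test. With limma 0 of 8 were called, and 0% of all 22462 genes were called either, although 3218 of them had an unadjusted p under 0.05, none of the 8 among these. With an intensity trend 868 genes, 3.86%, were called and again 0 of the 8. The median change of the 8 was 0.07, beside 0.007 for all genes, with 4 of 8 positive.

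**Figure D5:**
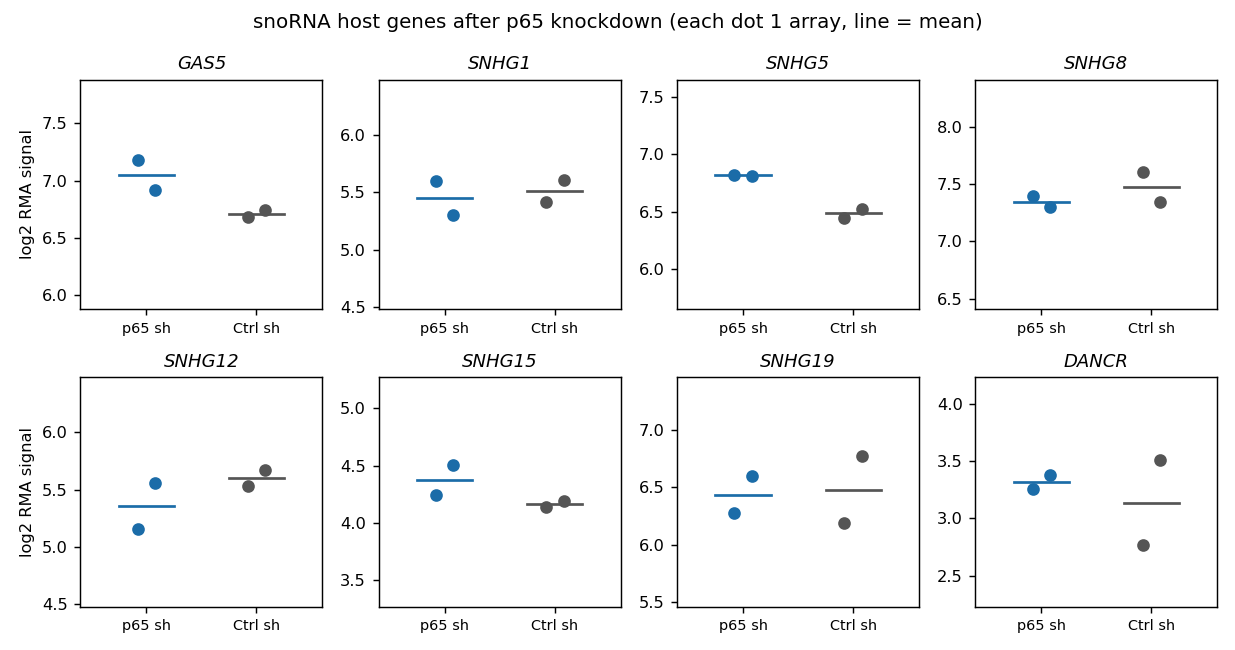
Log2 RMA signal (vertical axis) of the 8 host genes on the 4 arrays of the p65 table, p65 shRNA left of control shRNA. Each dot is 1 array and the line is the mean of 2; only GAS5, SNHG5 and SNHG15 have both p65 shRNA arrays above both control shRNA arrays.

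GAS5 read 7.18 and 6.92 in p65 shRNA cells, against 6.68 and 6.74 in control shRNA cells, a change of 0.33 with a 95% interval from -0.124 to 0.793 (adjusted p = 0.479). SNHG5 read 6.82 and 6.81 in p65 shRNA cells, against 6.44 and 6.53 in control shRNA cells, also 0.33, from -0.0824 to 0.747 (adjusted p = 0.440). SNHG15 read 4.24 and 4.51 in p65 shRNA cells, against 4.14 and 4.19 in control shRNA cells, a change of 0.21, from -0.250 to 0.671. In these 3 genes the arrays did not overlap, a pattern that 23.3% of all genes showed in that direction. DANCR read 3.26 and 3.38 in p65 shRNA cells, against 2.77 and 3.50 in control shRNA cells, so that its control arrays, 0.735 apart, spanned the p65 arrays. SNHG1 read 5.60 and 5.30 in p65 shRNA cells, against 5.42 and 5.61 in control shRNA cells. SNHG8 read 7.39 and 7.30 in p65 shRNA cells, against 7.60 and 7.34 in control shRNA cells. Those 3 genes had overlapping arrays and changes of 0.18, -0.06 and -0.12. The arrays of SNHG12 were 5.16 and 5.56 for p65 shRNA and 5.54 and 5.67 for control shRNA, a change of -0.25 with an interval from -0.766 to 0.276. Those of SNHG19 were 6.27 and 6.60 for p65 shRNA and 6.19 and 6.77 for control shRNA, a change of -0.04 with an interval from -0.697 to 0.612.

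Replicate spread limits what the p65 table can show. Replicate arrays differed across genes with an SD of 0.400 for p65 shRNA and 0.427 for control shRNA, against 0.202 for hairpin 44, 0.197 for hairpin 45 and 0.239 for scrambled in the ZHX2 table. The upper ends of the 8 intervals lay between 0.276 (SNHG12) and 0.885 (DANCR). The difference between the 2 knockdowns was not tested, as the tables come from different array platforms and were normalized separately. Knockdown target and platform therefore cannot be told apart. None of the 6 snoRNAs was called after p65 knockdown. SNORD99 had the largest change, at 3.39 and 3.07 in p65 shRNA cells and 3.91 and 4.41 in control shRNA cells, which is -0.93 ± 0.242 (adjusted p = 0.205), and the other 5 lay between -0.09 and 0.11. The list of further noncoding hosts also had 0 of 7 called, with all 7 changes positive and a median of 0.43. With an intensity trend SNHG32 (0.85, adjusted p = 0.00434) and SNHG16 (0.71, adjusted p = 0.0181) were called. For the coding hosts, the snoRNP genes and the decay factors the counts were 0 of 12, 0 of 15 and 0 of 14, with medians of 0.15, 0.14 and 0.04. Leukocyte markers summed to 360.3 to 393.0 in p65 shRNA cells and 275.1 to 298.3 in control shRNA cells, with 0 of 18 markers of other cell types called. CD68 dominated that sum, at a mean of 8.51 in p65 shRNA cells and 8.11 in control shRNA cells (adjusted p = 0.375), while the other 4 leukocyte markers lay at means of 0.773 to 1.71 in p65 shRNA cells and changed by -0.26 to 0.20. The part of these markers was not tested.

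Other genes followed the same course over the ZHX2 arrays. The mean signal of the 8 host genes was correlated with every gene outside the lists whose SD over the 6 arrays was at least 0.2. The highest Pearson correlations were those of NTMT1 (0.9991), SNRNP40 (0.9990), ALYREF (0.9988), MIR3137 (0.9988) and TWNK (0.9986). Since the 6 arrays form only 3 groups, such values were common, and 173 of 6977 genes exceeded 0.99. Single host genes correlated with the mean of the 8 at 0.964 (DANCR) to 0.993 (SNHG15). Each host gene is part of that mean, so these values were bound to be high and cannot be set against those of outside genes.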

How the data were processed

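Total RNA was measured on 10 Affymetrix arrays. The deposited values are log2 RMA signals per probe set, per the submitters' processing notes; their software and genome build, not given in the sources used here, remain unknown. Both tables hold 53617 probe sets, of which 24471 were named with 1 gene by joining both platform annotations and updating symbols through RefSeq (GRCh38.p14, names only). The 1842 with several genes, 108 with conflicting genes and 27196 with none stayed unnamed. Where a gene had several probe sets (1071 genes), the brightest on average was taken. Dim probe sets were kept.

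Each table was fitted alone with limma 3.58.1 in R 4.3.3 (lmFit and eBayes, no trend, no block), with Benjamini-Hochberg adjustment over 22462 genes and calls at 0.05. Values after ± are moderated standard errors, and intervals are moderated 95% intervals. The number of arrays limits the precision. The fit was tested on simulated data.

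The host genes and the lists were chosen with earlier results of these data known. Named genes were all 10 members, the targeted genes, the measured snoRNAs of the members, the 4 smallest p of each related list with any called further noncoding host, the cell type markers, and the 5 genes most correlated with the members' mean. UPF1, SNHG18, SNHG21 and the list members that missed the threshold were named after their values were seen.

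Tried as alternatives were moderation with an intensity trend or with robust fitting, arrays rescaled by median or by quantiles, removal of probe sets below the 40th percentile of mean signal, averaging of probe sets, a replicate block, a 1.5-fold minimum, fits without the group not compared, and the omission of each array in turn.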

Additional observations from a re-analysis of the deposited data

How the results depend on the processing

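With both ZHX2 hairpins against scrambled, all 8 host genes stayed called under the intensity trend, robust moderation, both rescalings, the filter on dim probe sets, the mean of probe sets and the replicate block; 7 passed the 1.5-fold minimum and 7 to 8 passed with each array left out. The 4103 genes called in all became 1038 at 1.5-fold and 1786 to 3332 with each array left out. For hairpin 44 the 8 host genes became 5 on only the groups compared, 5 with the replicate block and 0 to 5 with each array left out. All its calls, 1718, became 3943 with the trend, 3064 without dim probe sets, 576 on only the groups compared, 816 with the replicate block, 687 at 1.5-fold and 3 to 595 with each array left out. For hairpin 45 the 4512 calls became 1627 at 1.5-fold and 1132 to 3967 with each array left out, and 7 to 8 host genes stayed called. For hairpin 45 against hairpin 44, host gene calls moved from 0 to 3 with the trend and 1 without dim probe sets, and all calls from 89 to 1465 with the trend, 400 without dim probe sets, 3 on only the groups compared, 9 with the replicate block and 0 to 4 with each array left out. For p65 the trend called 868 genes where the plain fit called 0. The 1.5-fold minimum was added to the same adjusted p-values, so it could only remove calls. The cause of the other shifts was not tested. Some of the fits concerned, but not those with the trend, the replicate block or the 1.5-fold minimum, held fewer arrays or genes.

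The p65 changes that turned sign did so when an array was left out: SNHG1 ranged from -0.21 to 0.087, SNHG8 from -0.25 to 0.0057, SNHG19 from -0.33 to 0.25, DANCR from -0.185 to 0.55, ZHX2 from -0.19 to 0.0101, and the median of the host genes from -0.0766 to 0.24. Same-numbered arrays of different groups did not deviate together (correlations from -0.0263 to 0.0539), so the numbers pair nothing; beyond the hairpin 44 calls and the lists given above, the block removed no host gene or snoRNA call for both hairpins together. An arm left with 1 array was assumed to vary like the other groups. A fit of only the groups compared was not run for both hairpins together or for p65, whose fits already hold those groups alone.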

Other observations

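Probe sets shared by several genes carried signal that belongs to no single host gene. GAS5 and SNHG15 each had 1 such probe set besides their own, and its values are not given here. Those that hold SNHG3 or SNHG6 follow. The one annotated to RCC1, SNHG3 and SNORA73A read 9.61 and 9.73 with hairpin 44, 9.80 and 9.82 with hairpin 45, and 9.17 and 9.15 with the scrambled control, so the hairpin arrays lay above the scrambled arrays. In the p65 table it read 5.89 and 5.62 in p65 shRNA cells, against 5.41 and 6.21 in control shRNA cells. A second one, annotated to SNHG3 and SNORA73A, read 5.84 and 5.79 with hairpin 44, 6.03 and 5.99 with hairpin 45, and 5.85 and 5.84 with the scrambled control, where hairpin 44 did not lie above scrambled. The one annotated to SNHG6 and SNORD87 read 8.27 and 8.33 with hairpin 44, 8.46 and 8.53 with hairpin 45, and 8.14 and 7.74 with the scrambled control. These values were not tested and were assigned to no gene.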
